A study of Mus musculus with 12 samples.

Results

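The genes described here encode the proteins of the cytosolic ribosome, measured by RNA sequencing in mouse bone marrow-derived macrophages. They were taken by name: protein-coding genes whose symbol is Rpl or Rps followed by digits and at most a closing a or x, plus Rplp0, Rplp1 and Rplp2. No expression value entered this name rule, but the set was chosen with earlier results of these data known. The rule found 75 genes among the 55891 rows of the deposited table. Of these, 46 encode proteins of the large subunit and 29 encode proteins of the small subunit. All 75 passed the filter on low counts, and 13525 genes were tested in all.

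The ribosome joins a small subunit, which reads the mRNA, to a large subunit, which forms peptide bonds, and each is built from ribosomal RNA and many proteins. The messages for these proteins begin with a C and a run of pyrimidines, the terminal oligopyrimidine (TOP) motif, through which LARP1 and the kinase complex mTORC1 control their translation and stability. Activated macrophages are known to change both metabolism and protein synthesis.

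The 12 libraries fall into 6 groups of 2. Macrophages lacking the receptor tyrosine phosphatase gene Ptprz1 (KO, labelled PTPRZ_KO) and wild-type macrophages (WT, labelled PTPRZ_WT and titled B6) were grown from marrow for 6 days with 10 ng/mL M-CSF, a macrophage growth factor. They were then given 100 ng/mL LPS with 10 ng/mL IFNγ for 24 h (called M1 in the labels), 20 ng/mL IL-4 for 24 h (called M2), or no stimulus, the control. The strain label B6.129-Ptprz1tm1Nmo stands on every sample, WT included. Whether the libraries within a group are separate mice or separate cultures is not in the labels. The p-values therefore cover the spread between libraries, which may be technical. Libraries were made from total RNA with a directional kit.

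The smallest library, KO LPS+IFNγ library 2, held 13665607 counts, and the largest, KO control library 1, held 19555600. Ptprz1 had 0 counts in 11 of the 12 libraries and 7 in WT IL-4 library 2, so RNA cannot check the deletion in these cells. Xist, made from the inactive X chromosome, had counts in 6 of 6 WT libraries and in 0 KO libraries, and 4 Y-linked genes had counts in 6 of 6 KO libraries and in 0 WT libraries. Sex and genotype therefore cannot be told apart in any KO against WT value. The CPM (counts relative to library size, adjusted by TMM factors) of 8 macrophage markers such as Adgre1 and Csf1r was summed. It lay between 14400 and 18780 in control, 17863 and 20865 in LPS+IFNγ and 8138 and 10065 in IL-4 libraries. A list of 7 dendritic cell markers summed to between 1039 and 1215 CPM in LPS+IFNγ libraries and between 38.3 and 113 CPM in the others. Whether the mix of cells differed between treatments was not tested. Stromal markers (8 genes such as Col1a1) summed to between 56.7 and 1520 CPM.

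To show the start of these messages, 30 bases around the start site annotated by RefSeq (GRCm38.p6) are printed for 8 members, from 10 bases before the start to 20 bases from it, read 5′ to 3′ on the gene's strand. Among members with a RefSeq window, the 4 with the lowest log2 fold changes after LPS+IFNγ in WT cells come first and the 4 with the highest follow. They were chosen after their values were seen. The motif searched was C followed by 4 bases that are each C or T, on the gene's strand only, starting within 10 bases of the annotated start. Capitals mark the match whose first C lies nearest to that start, the upstream one where 2 are equally near, with any pyrimidines that follow it. Pyrimidines just before the capitals can belong to the same run and stay in lower case.
Rpl10a (chr17:28328461-28328490, plus strand): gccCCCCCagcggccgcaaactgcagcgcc
Rps7 (chr12:28635934-28635963, minus strand): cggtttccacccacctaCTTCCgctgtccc
Rpl14 (chr9:120571507-120571536, plus strand): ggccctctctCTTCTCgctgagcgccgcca
Rps18 (chr17:33955646-33955675, minus strand): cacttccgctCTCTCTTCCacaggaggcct
Rps9 (chr7:3704031-3704060, plus strand): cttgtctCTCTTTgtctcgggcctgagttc
Rpl24 (chr16:55966265-55966294, plus strand): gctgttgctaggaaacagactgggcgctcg
Rpl41 (chr10:128549149-128549178, minus strand): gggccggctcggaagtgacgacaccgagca
Rps24 (chr14:24490668-24490697, plus strand): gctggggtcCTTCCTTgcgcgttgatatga
In Rpl14 and Rps18 a match began at the annotated start, inside a longer pyrimidine run that begins before it, and there was no match in Rpl24 or Rpl41. RefSeq windows were matched for 55 of the 75 members. The motif lay near the start in 31 of these 55 (56.4%), against 30.8% of all 27025 promoters in the table, and a match began exactly at the start in 12 (21.8%), against 2.49% of all promoters. A match describes letters and not a working site, and an annotated start can differ from the start used in these cells.

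The ribosomal protein messages took a much smaller part of the library after LPS+IFNγ in both genotypes. Together the 75 genes made up 0.677% and 0.910% of counts in the KO LPS+IFNγ libraries, against 2.84% and 2.54% in the KO control libraries. They made up 0.600% and 0.619% in WT LPS+IFNγ libraries, against 2.81% and 2.76% in WT control libraries. In IL-4 libraries the share was 2.99% and 3.01% in KO cells and 3.12% and 2.85% in WT cells. The 4 LPS+IFNγ libraries thus stood below all 8 others, and in each genotype both IL-4 libraries stood slightly above both control libraries. The mean share was 3.39-fold lower than control in KO cells and 4.57-fold lower in WT cells after LPS+IFNγ, and 1.12 and 1.07 times the control share after IL-4. Exact 95% binomial intervals, which cover counting error only, were narrow at this depth: 0.596% to 0.603% for the lowest library and 3.11% to 3.13% for the highest.

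**Figure D1:**
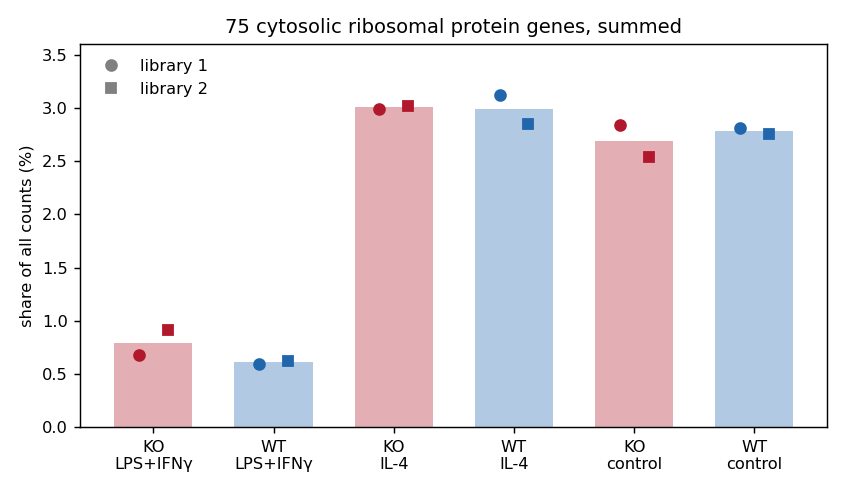
Share of all counts (%) taken by the 75 ribosomal protein genes. Bars are group means over 2 libraries and the symbols are single libraries, KO in red and WT in blue. The 4 LPS+IFNγ libraries lie between 0.600% and 0.910%, and the other 8 lie between 2.54% and 3.12%.

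Counts of large subunit genes were 1.43 to 1.51 times those of small subunit genes in each of the 12 libraries. In bulk RNA, fewer cells of a type and less RNA per cell cannot be told apart, and neither can a fall of these messages and a rise of all others when shares are used.

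Gene by gene, LPS+IFNγ lowered nearly the whole set. With edgeR's quasi-likelihood test at a Benjamini-Hochberg adjusted p below 0.05, 71 of 75 members were lower and 0 were higher in KO cells, where 26.1% of all tested genes were called lower and 27.2% higher. In WT cells 72 of 75 were lower and 0 higher, where 27% of all tested genes were called lower and 27.4% higher. The median log2 fold change was −1.35 in KO cells, with members between −2.94 and 0.04, and −1.87 in WT cells, with members between −3.73 and −0.20. Over all genes the medians were −0.01 in KO and −0.05 in WT cells. The LPS+IFNγ libraries lay below the control libraries without overlap for 73 members in KO cells, against 37.1% of all genes, and for 75 in WT cells, against 42.5% of all genes. The median member stood at percentile 15.3 of all fold changes in KO and 11.4 in WT cells, so a sizeable set of other genes fell further. These values use TMM scaling, whose factors were 0.756 to 0.833 in LPS+IFNγ libraries and 1.09 to 1.16 in the others. With plain library totals, which move the median of all genes to −0.51 in KO and −0.55 in WT cells, all 75 members were called lower in both genotypes, with medians of −1.85 and −2.37. In that fit 59.4% of all genes in KO and 60.8% in WT cells were called in either direction, against 53.3% and 54.3% with TMM.

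**Figure D2:**
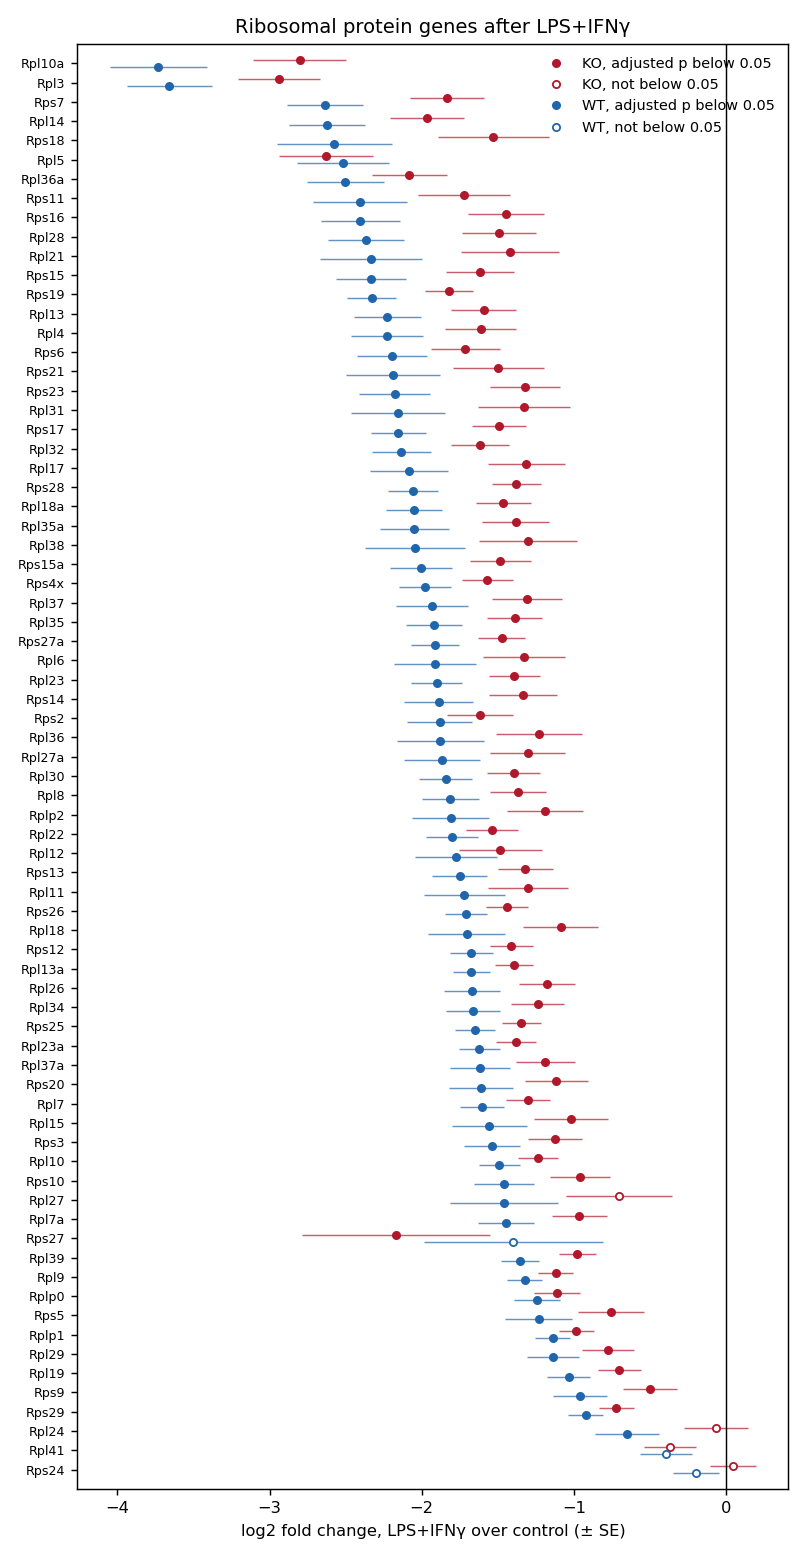
Log2 fold change of 74 members, LPS+IFNγ over control, in KO (red) and WT (blue) macrophages, ordered by the WT value. Bars are standard errors, filled points have an adjusted p below 0.05, and open points do not. The values run from −3.73 for Rpl10a in WT cells to 0.04 for Rps24 in KO cells.

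Rpl10a and Rpl3 had the lowest values in both genotypes and stood apart from the rest in WT cells. In KO cells Rpl5 lay close to them at −2.63. Rpl10a (chr17:28328471-28331033, GRCm38) encodes the protein of the L1 stalk, beside the site where spent tRNA leaves the large subunit. It had 13.2 and 31.3 CPM in KO LPS+IFNγ libraries, against 152 and 154 CPM in KO control libraries, and 12.2 and 11.7 CPM in WT LPS+IFNγ libraries, against 161 and 157 CPM in WT control libraries. Every LPS+IFNγ library was far below every control library, and KO library 2 was the highest of the 4. The log2 fold change was −2.80 ± 0.30 (SE, adjusted p = 5.11e-05) in KO cells and −3.73 ± 0.32 (adjusted p = 1.08e-05) in WT cells by edgeR's quasi-likelihood test. Rpl3 (chr15:80077791-80091868), which helps shape the peptidyl transferase centre, had 57.1 and 115 CPM in KO LPS+IFNγ libraries, against 688 and 630.1 CPM in KO control libraries. In WT cells it had 50.6 and 52.5 CPM after LPS+IFNγ, against 665 and 637 CPM in control. It was 7.68-fold lower in KO cells and 12.6-fold lower in WT cells, again without overlap. Without KO LPS+IFNγ library 2 the KO log2 fold changes were −3.54 for Rpl10a and −3.53 for Rpl3.

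Other large falls came from both subunits. Rps7, a small subunit protein tied to p53 control through MDM2, had 65.9 and 121 CPM after LPS+IFNγ, against 359.5 and 308 CPM in control, in KO cells. In WT cells it had 54.7 and 58.6 CPM after LPS+IFNγ, against 360.0 and 344 CPM in control, a log2 fold change of −2.64 ± 0.25 (SE). Rps18, at the head of the small subunit, had 61.7 and 179 CPM in KO LPS+IFNγ libraries, against 365 and 328 CPM in KO control libraries. The groups did not overlap, but the KO LPS+IFNγ libraries were far apart: the log2 fold change was −1.53 ± 0.37 (SE), −2.49 without KO LPS+IFNγ library 2, and no longer called from the 4 libraries of the contrast alone (adjusted p = 0.060 by edgeR's quasi-likelihood test). In WT cells Rps18 had 56.2 CPM in both LPS+IFNγ libraries, against 343 and 326 CPM in control, a log2 fold change of −2.57 ± 0.38 (SE). Rpl14, a large subunit protein, had log2 fold changes of −1.97 in KO and −2.62 in WT cells. Across the set, 62 members in KO cells and 70 in WT cells were below −1 on the log2 scale, and 5 and 28 were below −2.

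A few members hardly moved, and they are named here after their values were seen. Rps24, a small subunit protein mutated in some cases of Diamond-Blackfan anaemia in humans, had 379 and 481 CPM in KO LPS+IFNγ libraries, against 463 and 371 CPM in KO control libraries. In WT cells it had 372 and 347 CPM after LPS+IFNγ, against 418 and 406 CPM in control. The KO groups overlapped, and the log2 fold changes were 0.04 ± 0.15 (SE) in KO and −0.20 ± 0.15 in WT cells. With library totals they were −0.46 and −0.70 and both called, so neither the direction in KO cells nor the lack of a call is independent of the scaling. Rpl41, whose coding part of 75 bases is the shortest of the set, had log2 fold changes of −0.37 ± 0.17 in KO and −0.40 ± 0.17 in WT cells, not called with TMM scaling and called with library totals (−0.87 and −0.89).

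Rpl24, which forms part of a bridge between the subunits, had 150.2 and 249.8 CPM in KO LPS+IFNγ libraries, against 224 and 195 CPM in KO control libraries, so those groups overlapped. In WT cells it had 129.6 and 128 CPM after LPS+IFNγ, against 211 and 194 CPM in control, and it fell (log2 fold change −0.65 ± 0.21, SE, adjusted p = 0.026, edgeR's quasi-likelihood test). Leaving out any one of the 4 WT libraries of the contrast kept the value between −0.71 and −0.60 but ended the call (adjusted p = 0.061 to 0.11, edgeR's quasi-likelihood test). In KO cells the value was −0.07, and −0.48 and called without KO LPS+IFNγ library 2. Rpl27, of the large subunit, was not called in KO cells (log2 fold change −0.70 ± 0.35) and was −1.45 and called without the same library. In WT cells Rpl27 was called at −1.46 ± 0.35, though not without WT LPS+IFNγ library 2 (adjusted p = 0.055, edgeR's quasi-likelihood test). Rps27, of the small subunit, was not called in WT cells (−1.40 ± 0.59), and most counts of its family lie in close copies. In KO cells Rps27 was called at −2.17 ± 0.62, and leaving out 1 LPS+IFNγ library gave −1.37 (without library 1) or −3.82 (without library 2). That call was lost without KO control library 2 (adjusted p = 0.061, edgeR's quasi-likelihood test) and from the 4 libraries of the contrast alone (adjusted p = 0.068).

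Position, length and subunit separated the members little. The median LPS+IFNγ log2 fold change was −1.31 over large subunit and −1.44 over small subunit genes in KO cells, and −1.81 and −1.91 in WT cells. Genes that hold a small nucleolar RNA gene inside them (27 of 75) had medians of −1.39 in KO and −1.90 in WT cells, and those without one had −1.33 and −1.76. Members with the pyrimidine motif near the start had medians of −1.39 in KO and −1.87 in WT cells, against −1.33 and −1.78 for the 24 without it, and the printed starts show the motif on both sides, in Rpl10a and in Rps24. Over the 75 genes, which share libraries and depth, Spearman correlations of the fold change with transcript length, GC content and control level were within −0.11 and 0.10 in both genotypes. With coding length Pearson's r was −0.32 in KO and −0.29 in WT cells and Spearman's rho was −0.15 and −0.12.

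The 4 X-linked members were read on their own because the genotypes differ in sex. In LPS+IFNγ libraries Rpl36a, Rpl39, Rps4x and Rpl10 were called lower in both genotypes. Rps4x, of the small subunit, had 231 and 284 CPM in KO LPS+IFNγ libraries, against 828 and 699.8 CPM in KO control libraries. It had 189.8 and 207 CPM in WT LPS+IFNγ libraries, against 784 and 779 CPM in WT control libraries. The groups did not overlap. In control libraries the KO against WT log2 fold change was −0.03 ± 0.16 (SE) for Rps4x, −0.07 ± 0.13 for Rpl10, 0.11 ± 0.23 for Rpl36a and −0.02 ± 0.12 for Rpl39, all within 1 standard error of 0.

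No member was called between KO and WT cells in any treatment. In control libraries 0 members were called between KO and WT cells, against 0.0739% of all genes, and 0 had an unadjusted p under 0.05, against 7.48%. The median log2 fold change was 0.02, and members ran from −0.21 ± 0.25 (SE) for Rpl12 to 0.16 ± 0.56 for Rps27. In IL-4 libraries 0 were called, against 0.0665% of all genes, and 0 had an unadjusted p under 0.05, against 3.35%. The median there was 0.04, and the highest value was 1.04 ± 0.58 (SE) for Rps27. DESeq2 also called 0 members in both.

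In LPS+IFNγ libraries the KO against WT values had a median of 0.52 on the log2 scale, 1.44-fold, against a median of 0.01 over all genes. The sign was positive for 73 of 75, all but Rpl5 and Rps27, and 61 members did not overlap between the genotypes, against 19.5% of all genes. Still, 0 members were called by edgeR's quasi-likelihood test, against 0.0591% of all genes, and 0 by DESeq2. At an unadjusted p under 0.05 there were 56, all higher in KO cells, against 4.82% of all genes. The largest difference was 1.09 ± 0.37 (SE, adjusted p = 0.57, edgeR's quasi-likelihood test) for Rps18, and the lowest was −0.61 ± 0.63 for Rps27.

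That difference leaned on KO LPS+IFNγ library 2. In it 73 of 75 members were higher than in KO LPS+IFNγ library 1, by a median of 0.65 on the log2 scale, whereas the WT LPS+IFNγ libraries differed by a median of 0.02, with 41 members higher in library 2. Without KO library 2 the median KO against WT difference was 0.16 and 0 members were called. Without KO library 1 it was 0.81, and 47 members were called higher, against 3.57% of all genes called in that fit. The same library had the fewest counts of the 12 and the lowest TMM factor (0.756). Its stromal markers summed to 860.0 CPM, against 326 CPM in KO library 1 and 56.7 and 220 CPM in the WT LPS+IFNγ libraries, with 8 of 8 detected. The stromal sum was higher in library 2 than in library 1 in every group, so it is not particular to this library. The granulocyte list of KO LPS+IFNγ library 2 summed to 221 CPM, against 39.3 CPM in KO library 1 and 25.7 and 25.6 CPM in WT. Nearly all of it was S100a8, while Ly6g and Elane were at 0 in these 4 libraries. The part of these in the result was not tested.

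**Figure D3:**
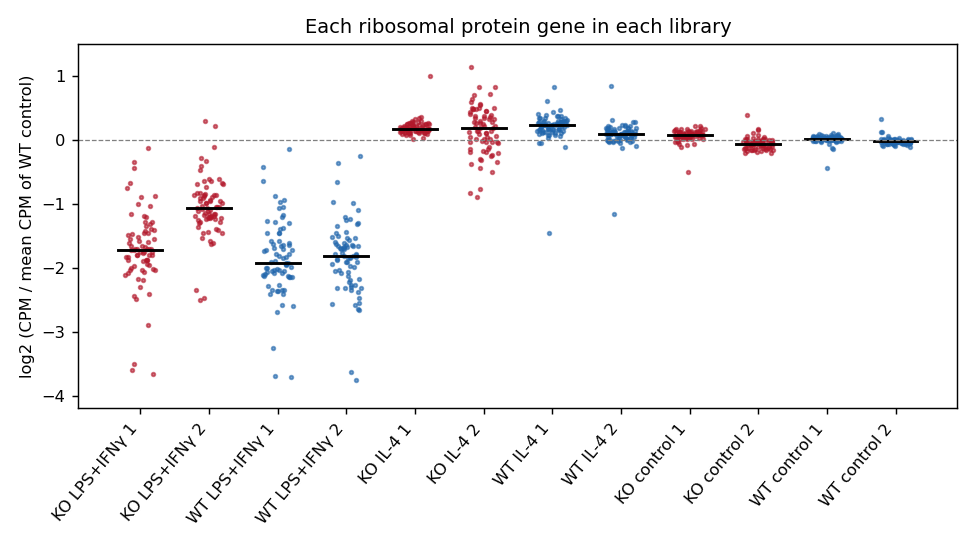
Log2 ratio of each member's CPM to its mean in the WT control libraries, for each of the 12 libraries. Points are the 75 genes, black lines are medians, KO is red and WT is blue. KO LPS+IFNγ library 2 lies above the other 3 LPS+IFNγ libraries, and KO IL-4 library 2 is spread more widely than the other IL-4 libraries.

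Taking the 3 treatments together, 0 members were called between KO and WT cells, against 0.17% of all genes, with a median of 0.19, 74 positive signs, and 6 members at an unadjusted p under 0.05, against 11.3% of all genes. The median was 0.29 without KO LPS+IFNγ library 1, with 8 members called against 0.92% of all genes, and 0.066 without KO LPS+IFNγ library 2, with 0 called. Rps18 was highest at 0.40 ± 0.21 (SE) and Rpl5 lowest at −0.04 ± 0.17. DESeq2 called 0. For the change with LPS+IFNγ, the interaction term of edgeR's quasi-likelihood test called 0 members between genotypes, against 0% of all genes. With no gene called at all, this does not show that the changes were equal. DESeq2 called 0 members too, against 0.0444% of all genes. The interaction median was 0.50, and 9 members had an unadjusted p under 0.05, against 3.52% of all genes. Without KO LPS+IFNγ library 1 the median was 0.79 and 4 members were called, against 0.191% of all genes, and without KO LPS+IFNγ library 2 the median was 0.14 and 0 were called. For IL-4 the interaction called 0 members by edgeR's quasi-likelihood test, against 0% of all genes, and 0 by DESeq2, against 0.0444%. Its median was 0.00, and 0 members had an unadjusted p under 0.05, against 4.47%.

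IL-4 left the set close to control. In KO cells 1 member, Rpl12, was called higher, against 3.52% of all genes, and 0 were called lower, against 3.34%. In WT cells 0 were called in either direction, against 9.04% of all genes, by edgeR's quasi-likelihood test, where 1 had an unadjusted p under 0.05, against 25.6%, and DESeq2 called 1. The medians were 0.18 in KO and 0.17 in WT cells, against 0.00 and −0.02 over all genes, with positive signs for 63 and 71 members. Members did not overlap and were higher with IL-4 in 41 cases in KO cells, against 25.6% of all genes, and in 53 in WT cells, against 30.8%. Fitted on the WT libraries of this contrast alone, 14 members were called higher and 1 lower, where 27.9% of all genes were called in either direction. Fitted on the KO libraries alone, 0 members were called, where 0.0637% of all genes were called.

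Rpl12, a protein of the stalk base of the large subunit, had 27.1 and 30.1 CPM in KO IL-4 libraries, against 9.63 and 13.9 CPM in KO control libraries. It had 24.1 and 24.4 CPM in WT IL-4 libraries, against 13.4 and 13.8 CPM in WT control libraries. Neither pair of groups overlapped. The log2 fold change was 1.28 ± 0.25 (SE, adjusted p = 0.018, edgeR's quasi-likelihood test) in KO cells and 0.83 ± 0.25 (adjusted p = 0.066) in WT cells. The KO call was lost without KO control library 1 (adjusted p = 0.11, edgeR's quasi-likelihood test), without KO IL-4 library 2 (adjusted p = 0.083) and from the 4 libraries of the contrast alone (adjusted p = 0.12). Pooled with its copies, Rpl12 was 0.39 in KO cells (adjusted p = 0.28, edgeR's quasi-likelihood test). At the low end Rps27 was −1.29 ± 0.58 (SE) in WT cells, not called, and Rps27 was −0.41 ± 0.57 in KO cells.

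KO IL-4 library 2 was uneven within the set. Against KO IL-4 library 1 its members ran from −1.002 on the log2 scale for Rpl31 to 0.68 for Rps21, with a median of −0.03. Its mitochondrially encoded share was 1.39% of counts, against 2.76% in KO IL-4 library 1, and its stromal markers summed to 1520 CPM, against 400.0 CPM. In every group the stromal sum was higher in library 2. It was 1025 against 412 CPM in KO control and 258 against 62.3 CPM in WT IL-4 libraries. The part of the mitochondrial share and the stromal sum in the spread was not tested. Over the 6 groups, Rps27, Rpl27 and Rps21 had the widest mean gap between libraries of a group, at 0.86, 0.46 and 0.39 on the log2 scale.

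Many members have copies elsewhere in the genome that share sequence with them, which matters for every value above. Copies were sought among pseudogenes and other genes with an Rpl or Rps symbol in the deposited table. In the GENCODE transcripts 615 of these shared at least 100 words of 31 bases with a member, and 69 of 75 members had at least 1 such copy. In 7 members the copies held more counts than the member itself: Rpl12 (95.6% of the summed counts), Rpl5 (94.7%), Rps27 (80.9%), Rpl10 (72.4%), Rps23 (61.0%), Rpl27a (60.1%) and Rpl27 (51.0%). Counts that such genes share cannot be assigned surely to one of them, so their levels and folds are uncertain. Of the 454 copies with any count, 123 were tested, and after LPS+IFNγ 44 were called lower and 2 higher in KO cells, and 53 lower and 2 higher in WT cells by edgeR's quasi-likelihood test. Of all tested genes, 26.1% were called lower and 27.2% higher in KO cells, and 27% lower and 27.4% higher in WT cells.

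The Rpl5 family shows how the counts were shared. Rpl5, which with Rpl11 carries the 5S ribosomal RNA, had 4.73 and 6.29 CPM in KO LPS+IFNγ libraries, against 33.4 and 34.3 CPM in KO control libraries. Its copy Gm15500 had 152 and 233 CPM in KO LPS+IFNγ libraries, against 649.5 and 589 CPM in KO control libraries. In WT cells Rpl5 had 3.68 and 8.54 CPM after LPS+IFNγ, against 33.6 and 36.5 CPM in control, and Gm15500 had 138 and 143 CPM, against 623 and 612 CPM. Both were lower after LPS+IFNγ without overlap in both genotypes. Pooled with its copies, Rpl5 fell by 1.73 on the log2 scale in KO cells and by 2.16 in WT cells, where Rpl5 alone fell by 2.63 and 2.52. Rpl5 alone was −3.25 in WT cells without WT LPS+IFNγ library 2. Pooling gave Rpl12 −1.80 in KO and −2.18 in WT cells. Rpl10a, with 47.6% of the summed counts in its copies, was −2.94 in KO and −3.84 in WT cells when pooled. Pooled Rps27 was −1.05 in KO and −1.44 in WT cells, both called (adjusted p = 1.88e-04 and 2.44e-05, edgeR's quasi-likelihood test), and after IL-4 it was 0.06 and 0.01. Pooled with copies over the whole set, 71 members in KO and 73 in WT cells were called lower after LPS+IFNγ. In that fit 53.5% of all genes in KO and 54.4% in WT cells were called in either direction.

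**Figure D4:**
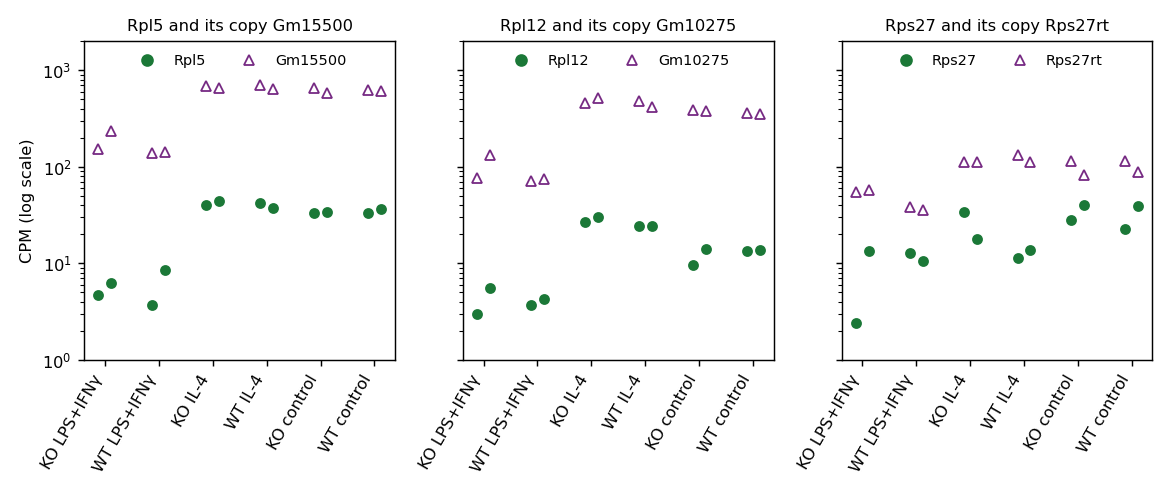
CPM (log axis) of Rpl5, Rpl12 and Rps27 (filled circles) and of a copy of each (open triangles) in each of the 12 libraries. Rpl5 lies between 3.68 and 44.5 CPM while Gm15500 lies between 138 and 707 CPM, and both are lowest in the LPS+IFNγ libraries.

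Levels between members were compared as TMM-scaled CPM per kilobase of a chosen transcript. CPM per kilobase in WT control libraries averaged 1211 for Rplp1, a stalk protein, 807 for Rpl41, 816 for Rps2, 829 for Rps12 and 801 for Rps4x, the 5 highest over all libraries. The 5 lowest were Rpl12 at 11.0, Rpl5 at 17.1, Rps20 at 57.6, Rps27 at 89.4 and Rpl27a at 100.5. Rpl12, Rpl5, Rps27 and Rpl27a are among the members whose copies hold more of the counts, and the Rps20 value rests on a transcript of 3706 bases. After LPS+IFNγ the Rplp1 value was 638 in KO and 549.5 in WT cells, against 1262 and 1211 in control.

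Ribosomal proteins whose symbols the name pattern leaves out were lower too. Rpsa, Fau, Rps3a1 and Rack1 were each called lower after LPS+IFNγ in both genotypes, with Rpsa, also known as the laminin receptor, at −2.25 ± 0.12 (SE) in KO and −2.38 ± 0.12 in WT cells. Rack1, a signalling scaffold on the small subunit, was −1.65 ± 0.23 in KO and −2.34 ± 0.23 in WT cells. Of 8 paralogs, 6 were tested. Rpl22l1, a paralog of Rpl22, fell by 2.57 in KO and 3.13 in WT cells, and Rpl36al and Rps27l were also lower in both. Rpl7l1 was 0.08 ± 0.09 in KO cells (not called) and 0.26 ± 0.09 in WT cells (called). Rpl10l had 0 counts in all libraries.

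The other lists of protein synthesis genes are given with TMM scaling alone, and how library totals would move their calls is not shown. Their counts after LPS+IFNγ stand against 26.1% of all genes called lower and 27.2% called higher in KO cells, and 27% lower and 27.4% higher in WT cells. Of 18 further mRNAs known to carry a TOP motif, which include Rack1, 17 were called lower and 1 higher after LPS+IFNγ in each genotype. The elongation factor Eef1a1 was −2.10 ± 0.47 (SE) in KO and −3.60 ± 0.51 in WT cells, the histone chaperone Nap1l1 −2.79 ± 0.13 and −2.87 ± 0.13, and Eef1b2 −1.87 ± 0.24 and −2.42 ± 0.24. The exception was Vim, the intermediate filament vimentin, at 0.45 ± 0.13 in KO and 0.79 ± 0.13 in WT cells. Of 58 ribosome assembly factors, 36 were lower and 1 (Riok1) higher in KO cells, and 31 were lower and 2 (Riok1 and Rrp36) higher in WT cells, with medians of −0.66 and −0.65. Wdr12, needed for large subunit assembly, was −2.26 ± 0.14 in KO and −2.12 ± 0.13 in WT cells, and Dkc1, the pseudouridine synthase dyskerin, −1.82 ± 0.26 and −1.90 ± 0.26. Of 32 translation initiation factors, 10 were lower and 5 higher in KO cells, and 12 were lower and 7 higher in WT cells. Eif6, which keeps free large subunits apart from small ones, was 1.34 ± 0.23 in KO and 1.18 ± 0.23 in WT cells, and Eif3i −1.17 ± 0.15 and −1.30 ± 0.15.

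Mitochondrial ribosomal proteins build the separate ribosome that translates mitochondrially encoded messages. Of 78 mitochondrial ribosomal protein genes, 20 were called lower and 12 higher after LPS+IFNγ in KO cells, and 19 lower and 9 higher in WT cells, with medians of −0.14 and −0.13. The shares of all tested genes were 26.1% lower and 27.2% higher in KO cells, and 27% lower and 27.4% higher in WT cells. Mrps6 was −0.94 ± 0.17 (SE) in KO and −1.13 ± 0.17 in WT cells, and Mrpl52 was 1.40 ± 0.40 and 1.30 ± 0.40. Of 16 tested RNA polymerase I genes, 5 were lower and 1 (Taf1c) higher in KO cells, and 6 lower and 0 higher in WT cells, with Polr1b, its second largest subunit, at −1.42 ± 0.17 and −1.02 ± 0.17. Of 24 tested genes of mTORC1 and translation control, 9 were lower and 7 higher in KO cells, and 7 lower and 6 higher in WT cells. Among them Myc, a transcription factor that drives ribosome production, was −3.19 ± 0.41 in KO and −2.98 ± 0.43 in WT cells, while Mxd1, which competes with it for Max, was 5.17 ± 0.25 and 5.07 ± 0.25. Of 13 tested genes of ribosome quality control and turnover, 4 were lower and 5 higher in KO cells, and 2 lower and 6 higher in WT cells.

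**Figure D5:**
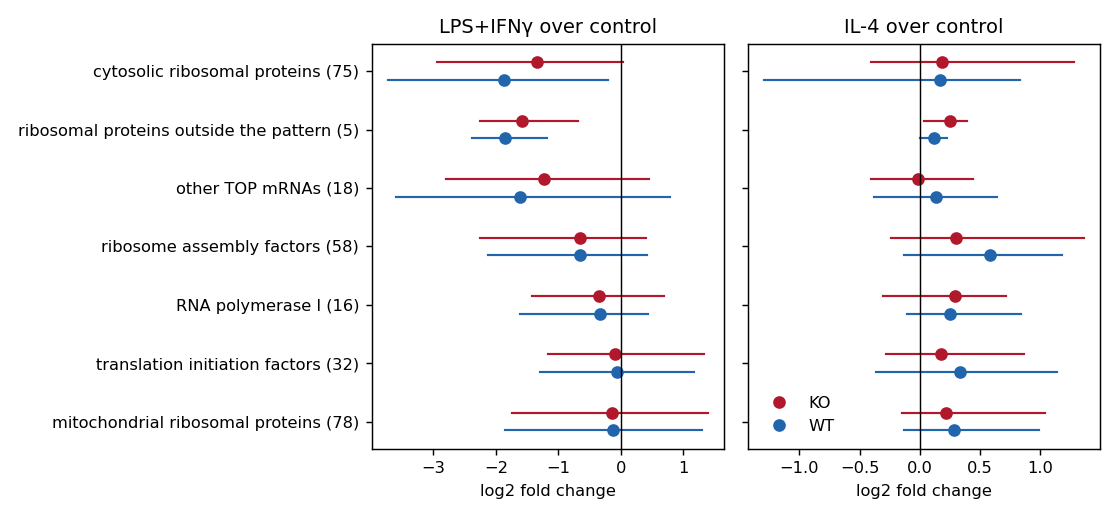
Median (points) and full range (lines) of log2 fold changes for 7 gene lists, with the number of tested genes in brackets, for LPS+IFNγ over control (left) and IL-4 over control (right), KO in red above WT in blue. After LPS+IFNγ the cytosolic ribosomal proteins have medians of −1.35 in KO and −1.87 in WT cells, and the mitochondrial ribosomal proteins −0.14 and −0.13.

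After IL-4 some assembly factors and initiation factors were called higher, more of them in WT than in KO cells. Of the 58 assembly factors 5 were higher and 0 lower in KO cells, and 14 were higher and 0 lower in WT cells, with medians of 0.30 and 0.58. Of all genes, 3.52% were called higher in KO and 4.92% in WT cells. In KO cells these were Ppan at 1.36 ± 0.26 (SE), Rrs1 at 1.27 ± 0.31, Nop16 at 0.95 ± 0.21, Fbl and Nop2. In WT cells Tsr1 was called at 1.18 ± 0.26 and Grwd1, a histone chaperone, at 1.06 ± 0.25. Of the 32 initiation factors 2 were higher in KO and 7 in WT cells, with Eif5a at 0.78 ± 0.16 in KO and 1.13 ± 0.16 in WT cells. Of the 78 mitochondrial ribosomal protein genes 1 was higher in KO and 8 in WT cells, with Mrps6 at 0.71 ± 0.16 and 0.81 ± 0.16. Calls in the lower direction are not given for the initiation factors or the mitochondrial ribosomal protein genes. Myc was 1.07 ± 0.34 in KO cells (not called) and 1.92 ± 0.35 in WT cells (called). The IL-4 and LPS+IFNγ comparisons of a genotype share their control libraries. Between genotypes, Eif2s3x, an X-linked subunit of initiation factor eIF2, was the 1 gene of these lists called over the 3 treatments together, at −0.59 ± 0.05 in KO against WT cells.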

How the data were processed

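Total RNA of 12 macrophage libraries was sequenced, and the authors deposited 1 table of estimated counts per gene, whole numbers with Ensembl identifiers. FastQC 0.11.9, Salmon 1.10.2, the build GRCm39, DESeq2 1.45.3 and R 4.4.1 are named, per the submitters' processing notes, with no role. For annotation, trimming and the use of strand, the setting is not given in the sources used here. Salmon divides reads between similar transcripts by a model, which bears on members with copies.

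Symbols came from GENCODE M21 on GRCm38 and matched 51425 of 55891 identifiers (92.0%). Coordinates are those of GRCm38 and were not converted. Genes passing filterByExpr (13525) were scaled by TMM and fitted with edgeR 4.0.16 (limma 3.58.1, R 4.3.3) by the quasi-likelihood test over 12 libraries in 6 groups, with 10 contrasts, 6 residual degrees of freedom and 3.36 prior degrees of freedom. A Benjamini-Hochberg adjusted p below 0.05 over all tested genes made a call. The procedure was tested on counts simulated for LPS+IFNγ against control in WT cells, with the same spread in all groups. That test does not cover the larger differences between KO libraries given below. Totals were 13665607 to 19555600 counts, and their number limits the precision of low members. The lowest count of a member in a single library was 36, for Rps27 in KO LPS+IFNγ library 1, and the lowest total over the 12 libraries was 3328, for Rpl12. Repeat libraries of a group differed by more than sampling noise, and more so in KO groups. The chi-square per gene was 48.4 in KO control, 53.8 in KO LPS+IFNγ and 54.9 in KO IL-4 libraries. In the WT groups it was 7.10, 7.81 and 15.6 in the same order. The fit shared 1 spread per gene over all groups. Standard errors can therefore be too wide within WT and too narrow within KO cells. Copies are pseudogenes, or other genes with an Rpl or Rps symbol, that share at least 100 words of 31 bases with a member. Other genes sharing such words were not counted as copies.

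Alternatives were DESeq2 1.42.0, other scalings, no filter, only the libraries of a contrast, the library number as a block, leaving out each library, and other member sets. Pooling counts with copies was chosen after seeing the data. The members and gene lists were chosen with earlier results of these data known. Named were the 5 highest and 5 lowest members per kilobase, up to 3 called members in each direction of a contrast or its extremes where none was called, X-linked members, the 3 with the widest gaps, and up to 3 called genes with the largest change in each related list. Some single genes are not reported here by name. Members that hardly moved, and a few list genes beside these, were added after their values were seen.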

Additional observations from a re-analysis of the deposited data

Results flagged for a closer look

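In 3 of the members reported by name, the KO and WT libraries did not overlap in either of 2 treatments and lay in opposite order. Such pairs were not counted over all genes, so 3 cannot be set against a share. Over all genes, non-overlap in 1 direction in a treatment ran from 15.1% (higher in KO, IL-4) to 22.6% (lower in KO, control). Rpl10a was 0.88 in KO against WT cells on the log2 scale with LPS+IFNγ and −0.053 in control. For Rpl7a the value was 0.47 with LPS+IFNγ and −0.12 with IL-4. For Rps6 it was 0.54 with LPS+IFNγ and −0.25 with IL-4. Copies held 47.6% of the summed counts for Rpl10a, 26.7% for Rps6 and 0.954% for Rpl7a. The copy Rpl10a-ps1 had 155.2 and 124.1 CPM in KO control libraries, against 120.1 and 123.7 CPM in WT control libraries. Rps6-ps4 had 158 and 451 CPM in KO IL-4 libraries, against 201 and 111 CPM in WT IL-4 libraries. The opposite order was not tested with copies pooled. The difference between LPS+IFNγ and IL-4 was not tested, and the interaction of genotype with LPS+IFNγ against control was not called for Rpl10a by edgeR's quasi-likelihood test.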

How the results depend on the processing

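The 71 (KO) and 72 (WT) members called lower after LPS+IFNγ stayed within 1.5 times of these counts under every alternative run. Between KO and WT cells with LPS+IFNγ, 4 members were called higher without a filter (0.355% of all genes called), and 0 to 47 when a library was left out, 47 without KO LPS+IFNγ library 1 (3.57% of all genes). For the 3 treatments together that range was 0 to 8 (0.92% of all genes at 8), and for the LPS+IFNγ interaction 0 to 4 (0.191% at 4). After IL-4, KO cells had 3 members higher without a filter (7.09% of all genes called) and by DESeq2 (13.4% of genes it gave an adjusted p). They had 0 from the libraries of the contrast alone (0.0637%) or with copies pooled (7.08%). The KO median ran from 0.046 to 0.25 when a library was left out. WT cells had 1 higher and 1 lower without a filter (7.42%) and 1 higher by DESeq2 (15.5% of genes it gave an adjusted p). From their own libraries WT cells had 14 higher and 1 lower (27.9%). With the library number as a replicate block, 1 was higher in WT IL-4 cells and no other count of members moved by over 1.5 times. Over all genes, 173 were then called between KO and WT cells over the 3 treatments together, against 23 in the main fit. Of the members, 0 were called in both fits. Libraries of the same number correlated above 0.1 in 14 of 15 pairs of groups (0.046 between KO and WT IL-4). All these correlations were positive, and the stromal sum was higher in library 2 in every group. The main fit did not use the numbers as pairing, and whether they mark a shared preparation was not tested. The mean share without mitochondrially encoded transcripts was 3.07% in KO IL-4 and 2.86% in WT control libraries. With the copies added it was 3.47% in KO IL-4, 3.41% in WT IL-4, 0.678% in WT LPS+IFNγ, 3.07% in KO control and 3.17% in WT control libraries. With 4 more ribosomal protein genes outside the name pattern it was 3.23% in KO IL-4, 3.19% in WT IL-4, 0.649% in WT LPS+IFNγ and 2.99% in WT control libraries. Rps27 in KO against WT cells with LPS+IFNγ turned to 0.39 with copies pooled and ran from −2.26 to 0.19 when a library was left out, and in WT cells after IL-4 it turned to 0.012 with copies pooled. After LPS+IFNγ in KO cells Rps24 turned to −0.46 with library totals and ran from −0.14 to 0.21 when a library was left out, and Rpl24 ran from −0.48 to 0.25. The cause was not tested. Depth limits the lowest members.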
